A study of Mus musculus with 13 samples.

Results

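Small RNAs of pachytene/diplotene spermatocytes (PD, 1 library) were set against those of leptotene/zygotene spermatocytes (LZ, 2 libraries), which is 3 of the 13 small RNA libraries of the series. All 3 came from germ cells of C57BL6/J mice at 3 to 4 weeks after birth, sorted by FACS on Hoechst-33342 fluorescence, a dye that reports DNA content and chromatin state, and all were read in 50-bp runs. The deposited tables of these libraries are named as wild type, and the labels give no treatment. The LZ libraries are biological replicates, and PD has no replicate, so every difference below is descriptive, without a p-value. A sort gate holds a mixture of stages and some other cells, and a lower share of a small RNA cannot be told apart from a larger amount of the other small RNAs in the same library.

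In male germ cells, PIWI proteins carry piRNAs, short guides that usually start with uridine and direct the protein to transcripts of matching sequence. Before pachytene, MILI carries shorter piRNAs, many of them from retrotransposons and from the ends of messenger RNAs. At pachytene a second, much larger wave arises from long noncoding precursor transcripts, and MIWI, which carries longer piRNAs, is then made. Retrotransposon piRNAs on the sense strand have the sequence of the element's own transcript, and antisense piRNAs are complementary to it.

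The libraries held 29956080 reads in LZ replicate 1, 17458652 in LZ replicate 2 and 13290381 in PD, of 11 to 48 nt. Reads of 24 to 33 nt, the size of piRNAs, made up 45.2% and 39.3% of the LZ libraries and 84.5% of PD. Levels are given in RPM, reads for every 1000000 reads of the library, so that 1 read is worth 0.0334, 0.0573 and 0.0752 RPM, and 10 RPM stands for 133 reads in PD. Mature miRNAs summed to 76939 and 112432 RPM in LZ and to 9401 RPM in PD. Among the miRNA markers of meiotic and later germ cells that could be looked up, miR-449a-5p stood at 24.2 and 36.1 RPM in LZ and 92.9 RPM in PD, and miR-34b-5p at 3.27, 5.04 and 11.3 RPM. Both were higher in PD than in either LZ library, whereas miR-449c-5p was not, at 2.40, 4.81 and 2.41 RPM. Of the 6 somatic markers looked up, all had reads in both LZ libraries and 2, miR-214-3p and miR-223-3p, had none in PD. The sum of the somatic list was 79.8 and 196 RPM in LZ and 4.97 RPM in PD, or 0.104%, 0.174% and 0.0528% of the miRNA reads. Most of it was miR-126a-3p of endothelial cells (58.4, 136 and 3.76 RPM) and miR-202-5p of Sertoli cells (15.8, 37.98 and 0.677 RPM). The spermatogonial markers miR-221-3p and miR-222-3p stayed at or below 1.95 RPM in the 3 libraries. The part of somatic RNA in the differences below was not tested.

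Examples of the sequences are shown first, chosen by their reads and not by their part in the differences between the stages. The most-read 24- to 33-nt sequences of LZ were 24-nt forms of 2 miRNA families, printed with the seed (bases 2 to 8) in capitals.
miR-30d: tGTAAACAtccccgactggaagct
miR-30a: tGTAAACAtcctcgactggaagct
miR-7: tGGAAGACtagtgattttgttgtt
The 2 miR-30 forms share a seed and the miR-7 form has another. The miR-30d form stood at 2448 and 2405 RPM in LZ and at 469 RPM in PD. The miR-30a form stood at 2035, 2462 and 231 RPM, and the miR-7 form at 1506, 2277 and 32.4 RPM, so each was lower in PD than in both LZ libraries.

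Among piRNA-sized reads from long noncoding precursors, the examples are the 5′ ends with the most reads, counted in the library that had the fewest, within each of the 5 lincRNA genes with the highest PD level. For each, the sequence read most in LZ is printed, followed by the one read most in PD where that differed, with capitals on the bases of the PD sequence that follow the stretch both share.
Gm49794, LZ: tatgagctctatcgggtttctgaaccctt
Gm49794, PD: tatgagctctatcgggtttctgaaccctGG
Gm10619, LZ: taaaaagataggttggcactccctga
Gm10619, PD: taaaaagataggttggcactccctgaGGGA
Gm21269, both: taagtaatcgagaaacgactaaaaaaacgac
Gm5878, both: tagaagacgagtttggactgagcgaaattc
1700001L05Rik, both: tagtagactggctcttgatggtttgt
All start with T, as the DNA letter for uridine. In the GENCODE M21 annotation of GRCm38 each end lies in an exon of its gene at 1 position, and its first 24 bases are at chr17:27357417-27357440 for Gm49794 (plus strand), chr7:73809386-73809409 for Gm10619 (minus strand), chr7:73819463-73819486 for Gm21269 (plus strand), chr6:85112884-85112907 for Gm5878 (minus strand) and chr15:83355608-83355631 for 1700001L05Rik (minus strand). The whole printed sequence is in the annotated transcript for all but the LZ sequence of Gm49794. At the Gm10619 end the 26-nt sequence had 282, 102 and 185 reads in LZ replicate 1, LZ replicate 2 and PD, and the 30-nt sequence had 94, 46 and 227. At the Gm49794 end the 29-nt sequence had 2747, 740 and 3392 reads and the 30-nt sequence 1250, 300 and 6654. Over all reads of that end, 30 nt was the most frequent length in each library (41.0%, 42.6% and 38.2%).

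On the sense strand, most retrotransposons had fewer piRNA-sized reads in PD than in LZ, among them every SINE and all but 1 of the LINEs tested. Among 262 listed consensus sequences (19 LINE, 237 LTR and 6 SINE), 74 had at least 10 RPM of sense reads in PD or in the LZ mean. A retrotransposon was counted as higher or lower when PD differed more than 2-fold from the LZ mean, after 1 RPM was added to both, with both LZ libraries on one side. A retrotransposon under 10 RPM in PD or in the LZ mean passed through the other value alone. It could then be called only in the direction of that other value. Of the 74, 12 (16.2%) were higher and 45 (60.8%) lower in PD, and the median log2 ratio was -1.75. All 6 SINEs, 14 of 15 LINEs and 25 of 53 LTR elements were lower. The remaining LINE, Lx3_Mus_3end of the L1 family, stood at 33, 35.2 and 51.95 RPM, above both LZ libraries by less than 2-fold, and the 12 that were higher were all LTR elements.

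**Figure D1:**
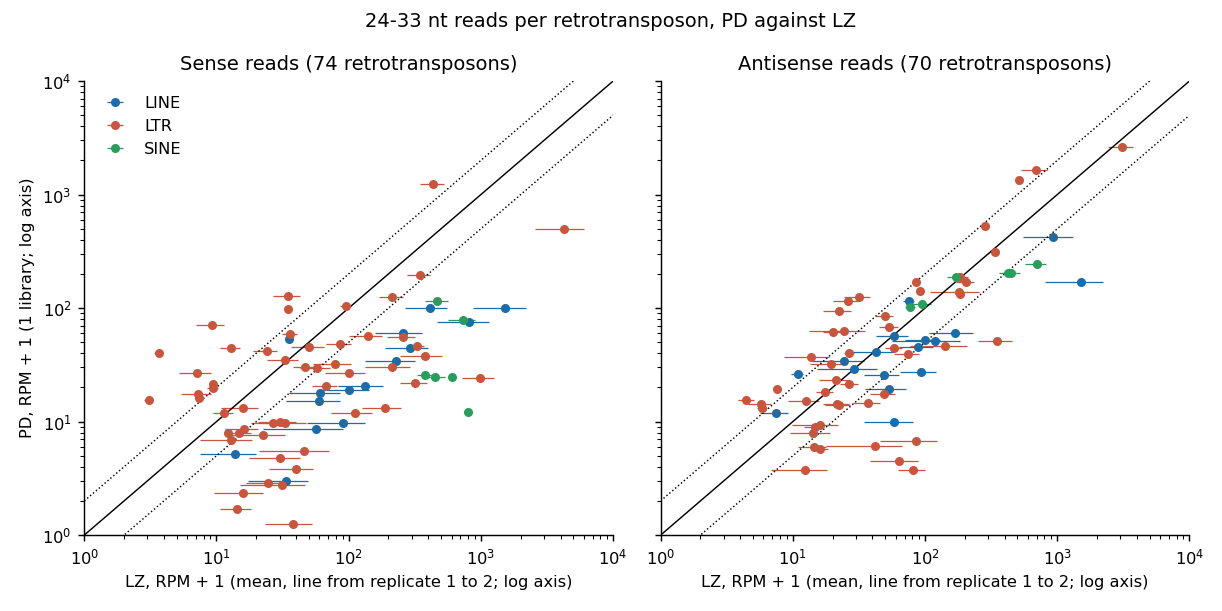
RPM + 1 of 24- to 33-nt reads for each retrotransposon with at least 10 RPM in PD or in the LZ mean, LZ mean on the x axis and PD on the y axis (both log), with sense reads on the left and antisense reads on the right. Points are coloured by class, the horizontal line joins LZ replicates 1 and 2, the solid diagonal marks equal levels and the dotted lines 2-fold. Most sense points lie below the lower dotted line (45 of 74), while antisense points lie around the diagonal (13 higher and 21 lower of 70).

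B2, a SINE that moves with the enzymes of LINE-1, lost its sense reads almost entirely while its antisense reads did not fall. B2_Mm1a had 748 and 838 RPM of sense reads in LZ and 11.1 RPM in PD, 71.2-fold lower than the LZ mean of 793 ± 63.3 RPM (SD, n = 2). Its antisense reads stood at 79.0, 110 and 108 RPM, with PD between the LZ libraries. B2_Mm1t fell from 590 and 616 to 23.5 RPM and B2_Mm2 from 330 and 428 to 24.5 RPM on the sense strand. Summed over the 3 B2 sequences, sense reads went from 1668 and 1882 to 59.1 RPM and antisense reads from 293 and 387 to 395 RPM. The antisense share of B2 reads was therefore 15.0% and 17.1% in LZ and 87.0% in PD, a quantity that no scaling of the libraries can change. Fragments of some structural RNAs were also lower in PD. Of the 24- to 33-nt reads, ribosomal RNA made up 0.916%, 2.09% and 0.0690% and mitochondrial tRNA 0.373%, 0.414% and 0.0383%. Small nuclear RNA went the other way, at 0.589%, 0.735% and 0.902%, or 2661, 2889 and 7626 RPM. A 31-nt sequence that matches 22 small nuclear RNA genes made up 229, 113 and 5858 RPM of this. Of the small nuclear RNA reads, 37.2%, 45.2% and 97.3% started with T. The part of RNA breakdown in the fall of SINE sense reads was not tested. B1, the other SINE family, was lower on both strands. B1_Mm went from 561 and 895 to 76.9 RPM on the sense strand and from 569 and 824 to 242 RPM on the antisense strand, and B1_Mus2 from 359 and 532 to 23.9 RPM of sense reads. B1_Mus1 fell less, from 377 and 558 to 114 RPM of sense reads.

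LINE-1 (L1), the autonomous retrotransposon of the mouse, was lower in PD on both strands, and more so on the sense strand. Over 17 L1 sequences, sense reads summed to 2388 and 5762 RPM in LZ and 551 RPM in PD, and antisense reads to 1940, 4638 and 1139 RPM. PD lay below both LZ libraries, although these stood far apart, with a sense mean of 4075 ± 2385 RPM (SD, n = 2). L1_Mm_orf2, the body that encodes the reverse transcriptase, fell from 864 and 2192 to 98.3 RPM of sense reads and from 812 and 2210 to 167 RPM of antisense reads. L1Md_A_5end, the promoter end of an active subfamily, fell from 47.2 and 132 to 8.73 RPM (sense) and from 33.6 and 80.7 to 8.87 RPM (antisense). L1Md_Gf_5end and L1Md_F_5end fell on the sense strand only by the rule: their antisense reads stood at 12.9, 33.5 and 33.1 RPM and at 14.3, 42.2 and 27.8 RPM, with PD between the LZ libraries. L1Md_T_3end had 265, 555 and 99.7 RPM of sense reads. MusHAL1, an older LINE, went from 16.3 and 48.3 to 1.99 RPM (sense) and from 55.4 and 182 to 49.8 RPM (antisense). Of the 17 LINEs tested in antisense reads, 7 were lower, 1 was higher and 9 were neither, where 30% of all retrotransposons tested were lower. The higher one was Lx3_Mus_3end, at 8.73, 11 and 25.3 RPM. With an LZ mean of 9.865 RPM it passed the 10 RPM filter through PD alone, so only a rise could be called. L1_Mus4_3end, at 66.6, 81.5 and 114 RPM, and L1VL1_5end, at 4.67, 8.22 and 10.9 RPM, also lay above both LZ libraries without reaching 2-fold.

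IAP, an endogenous retrovirus that still moves in mice, lost sense reads and held its antisense reads. Over 25 IAP sequences, sense reads were 3559 and 7713 RPM in LZ and 754 RPM in PD, and antisense reads 4721, 6234 and 6816 RPM. The antisense share of IAP reads was 57.0% and 44.7% in LZ and 90.04% in PD. IAPEz-int, the internal region of the main active group and the most-read retrotransposon of the table, fell from 2561 and 5987 to 501 RPM of sense reads, whereas its antisense reads were 2436, 3707 and 2599 RPM, between the LZ values. IAP1-MM_I had 22.1 and 52.2 RPM of sense reads in LZ and 0.26 RPM in PD, and IAPEY4_I went from 15.7 and 31.0 to 1.87 RPM. Among the terminal repeats, IAPLTR1_Mm fell on both strands (sense 281, 369 and 45.6 RPM; antisense 37.2, 58.8 and 16.4 RPM), and IAPLTR2a fell in sense reads only (11.2, 31.8 and 6.66 RPM), with 158, 209 and 187 RPM of antisense reads.

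IAPA_MM, IAPLTR2b and RLTR10C were the 3 retrotransposons counted as lower on the sense strand and higher on the antisense strand. IAPA_MM went from 99.4 and 179 to 55.4 RPM of sense reads and from 499 and 527 to 1352 RPM of antisense reads, 2.64-fold above an LZ mean with an SD of 19.5 RPM (n = 2). IAPLTR2b went from 19.6 and 39.0 to 8.86 RPM (sense) and from 841 and 530 to 1633 RPM (antisense). RLTR10C, a terminal repeat, went from 22.3 and 29.5 to 8.80 RPM (sense) and from 37.6 and 23.4 to 123 RPM (antisense). In each of the 3, PD lay outside the LZ pair on both strands. MMERVK10C, an endogenous retrovirus of the same family as RLTR10C, fell from 192 and 319 to 54.6 RPM of sense reads, and its antisense reads of 80.01, 88.2 and 169 RPM came to 2.01-fold the LZ mean but to a log2 ratio of 1.00 after 1 RPM was added, just short of the rule. No retrotransposon was counted as higher on the sense strand and lower on the antisense strand, or as higher on both.

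**Figure D2:**
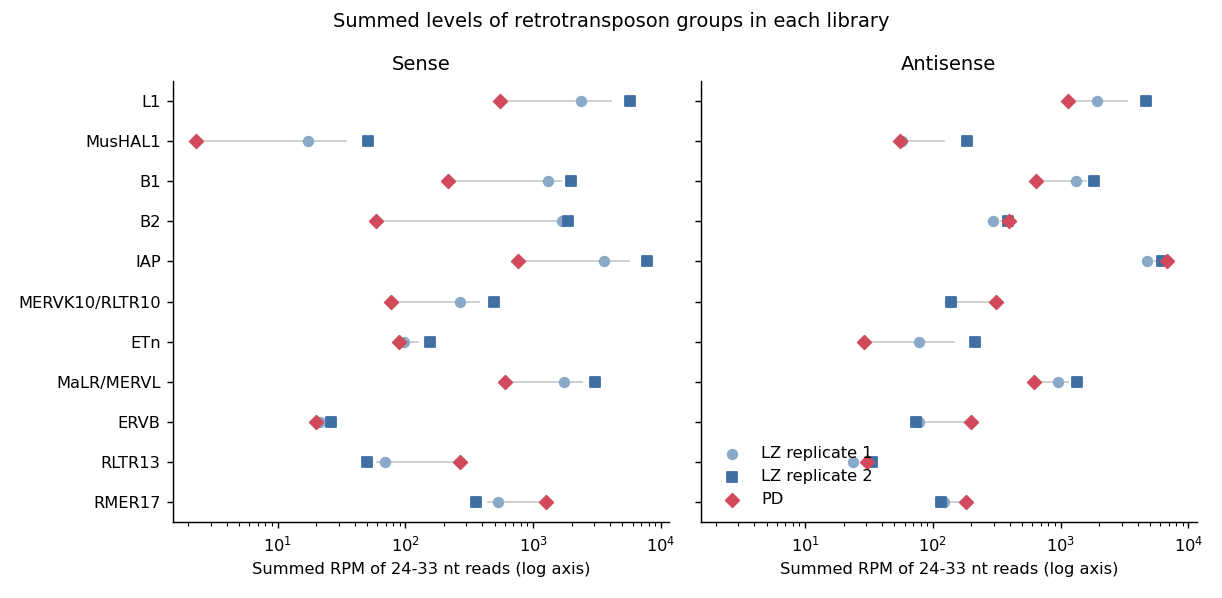
Summed RPM of 24- to 33-nt reads (x axis, log) for 11 groups of retrotransposons (rows) in each library, sense on the left and antisense on the right. Circles and squares are LZ replicates 1 and 2, diamonds are PD and the grey line joins the LZ mean to PD. Sense reads of L1, B1, B2, IAP and MaLR/MERVL lie to the left of both LZ libraries in PD, while RLTR13 and RMER17 lie to the right.

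MT-int, MTA_Mm and MTB_Mm, from LTR retrotransposons that are transcribed in oocytes, were lower in sense reads, and MT-int and MTA_Mm in antisense reads as well. MT-int, their internal region, went from 719 and 1248 to 23.4 RPM of sense reads and from 60.9 and 98.4 to 2.75 RPM of antisense reads, 41.97-fold and 28.96-fold below the LZ mean. MTA_Mm, a terminal repeat of the group, went from 242 and 509 to 36.8 RPM (sense) and from 250 and 451 to 49.9 RPM (antisense). MTB_Mm fell from 53.0 and 104 to 31.4 RPM of sense reads, while its antisense reads, at 56.9, 88.9 and 38.4 RPM, did not reach 2-fold. MERVL, which is transcribed in the early embryo, was below both LZ libraries by less than the rule asks (sense 274, 412 and 195 RPM; antisense 312, 364 and 308 RPM). MMETn-int and ETnERV, the internal regions of ETn elements, lost antisense reads: 16.7 and 65.5 to 5.08 RPM and 44.5 and 123 to 5.71 RPM. The sense reads of MMETn-int were 66.4, 103 and 47.2 RPM, not a 2-fold difference. MuRRS-int also lost antisense reads, from 37.6 and 87.9 to 3.54 RPM. ERVB4_1-I_MM and MMERGLN-int were under 10 RPM on both strands in all 3 libraries.

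LTR elements changed in both directions: 12 of 53 were higher and 25 lower in sense reads, 12 of 47 higher and 11 lower in antisense reads, and 22 of 71 higher and 22 lower with both strands together. Among the rises on the sense strand the RLTR13 repeats led, and RLTR13D3 rose from 2.95 and 2.39 to 38.9 RPM, RLTR13D3A from 10.5 and 5.98 to 70.4 RPM, RLTR13D5 from 2.32 and 1.84 to 14.5 RPM and RLTR13D2 from 41.5 and 25.9 to 128 RPM. RLTR41B rose from 8.11 and 4.18 to 25.8 RPM. RLTR13D3, RLTR13D3A, RLTR13D5 and RLTR41B had LZ means of 2.67, 8.24, 2.08 and 6.14 RPM. They passed the 10 RPM filter through PD alone, so only a rise could be called. Of the 22 listed RLTR13 sequences, 4 were tested in sense reads. Summed RLTR13 reads came in PD mostly from the sense strand, with an antisense share of 25.4% and 39.8% in LZ and 10.2% in PD. RLTR13D6 differed: it was counted as higher in antisense reads, at 4.34, 5.34 and 12.2 RPM. With both strands it had 4.79, 5.72 and 14.1 RPM. Of the 12 elements higher in sense reads, RMER17A2 had the highest PD sense level, at 524 and 346 RPM of sense reads in LZ and 1235 RPM in PD; it was chosen for mention after its values were seen. On the antisense strand 13 of 70 (18.6%) were higher and 21 (30%) lower, with a median log2 ratio of -0.25. With both strands together, 22 of 94 (23.4%) were higher and 38 (40.4%) lower. The largest antisense rises were those of ERVB5_2-LTR_MM (30.6 and 19.2 to 115 RPM), MERV1_I (26.6 and 15.8 to 93.8 RPM), RLTR10C, IAPEY3_LTR (2.82 and 4.10 to 14.5 RPM) and ERVB4_2-I_MM (22.1 and 15.9 to 61.0 RPM). In antisense reads, IAPEY3_LTR and RLTR13D6 had LZ means of 3.46 and 4.84 RPM. Both passed the 10 RPM filter through PD alone, so only a rise could be called. The antisense calls leaned on LZ replicate 2: with it left out, 14 of 66 were higher and 11 lower.

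The balance between strands shifted towards antisense within each library's own reads. Of 68 retrotransposons with at least 10 RPM in every library, the antisense share rose by at least 10 percentage points, with both LZ libraries on one side, in 35 (51.5%) and fell in 8 (11.8%). It rose in all 6 SINEs, 14 of 16 LINEs and 15 of 46 LTR elements. The 8 that fell were the LTR elements ERVB7_1-LTR_MM, ETnERV, LTRIS_Mus, MMERVK9E_I, MMETn-int, MuRRS-int, RLTR22_Mus and RLTR6-int. For ETnERV the antisense share went from 65.9% and 75.2% to 14.4%, and for IAPEz-int it went the other way, from 48.7% and 38.2% to 83.8%. Over all listed retrotransposons the antisense share was 45.4% and 41.4% in LZ and 71.3% in PD.

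The directions of levels depend on what the reads are scaled to, since 24- to 33-nt reads took up so much more of PD. Listed retrotransposons made up 4.89% and 9.58% of the 24- to 33-nt reads in LZ and 1.80% in PD. The number with at least 10 RPM also changed with the scaling. Scaled to the 24- to 33-nt reads, 69 of 90 retrotransposons were lower and 5 higher on the sense strand, with a median log2 ratio of -2.62. On the antisense strand 49 of 84 were lower and 3 higher. Scaled to the reads outside this size range, 25 of 105 were lower and 50 higher in sense reads, with a median of 0.87. In antisense reads 7 of 106 were lower and 73 higher. Rescaled to the total of the listed retrotransposons, 34 of 77 were lower and 20 higher in sense reads. In antisense reads 7 of 77 were lower and 36 higher. The summed sense reads of B2 (log2 ratio -4.91), MusHAL1 (-3.90), B1 (-2.93), IAP (-2.90) and L1 (-2.89) stayed below both LZ libraries under each of the 4 scalings used, with log2 ratios of -3.01, -1.96, -1.02, -0.98 and -0.96 scaled to the reads outside 24 to 33 nt. The summed sense reads of RLTR13 (2.17) and RMER17 stayed above both under each of the 4. The summed antisense reads of IAP, B2 and L1 did not keep 1 direction: scaled to the reads outside 24 to 33 nt their log2 ratios were 2.22, 2.12 and 0.39, and scaled to the 24- to 33-nt reads -0.71, -0.81 and -2.58.

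The reads that remained were longer in PD for nearly every retrotransposon. Among all 24- to 33-nt reads, 26 nt was the most frequent length in both LZ libraries (18.3% and 18.1%) and 30 nt in PD (23.4%). The share of 28- to 33-nt reads was 42.9% and 42.1% in LZ and 71.8% in PD, and it was 43.4%, 42.3% and 71.7% without reads of small noncoding RNAs. Over the listed retrotransposons it was 42.6%, 44.8% and 75.1% (95% Wilson interval in PD 74.9% to 75.3%, from reads estimated from the RPM values and covering counting error only). Of 68 retrotransposons with at least 10 RPM in each library, the share rose by at least 10 points in 67 (98.5%) and fell in 0 (0%), with a median change of 29.6 points. By strand, it rose in 42 of 43 (97.7%) in sense reads and in 50 of 51 (98%) in antisense reads. The exceptions were RLTR9A, at 16.7%, 21.6% and 23.5% with both strands together and 16.1%, 19.9% and 23.4% in antisense reads, and MT2C_Mm in sense reads, at 61.0%, 57.1% and 62.5%. In these too PD lay above both LZ libraries, by less than 10 points.

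**Figure D3:**
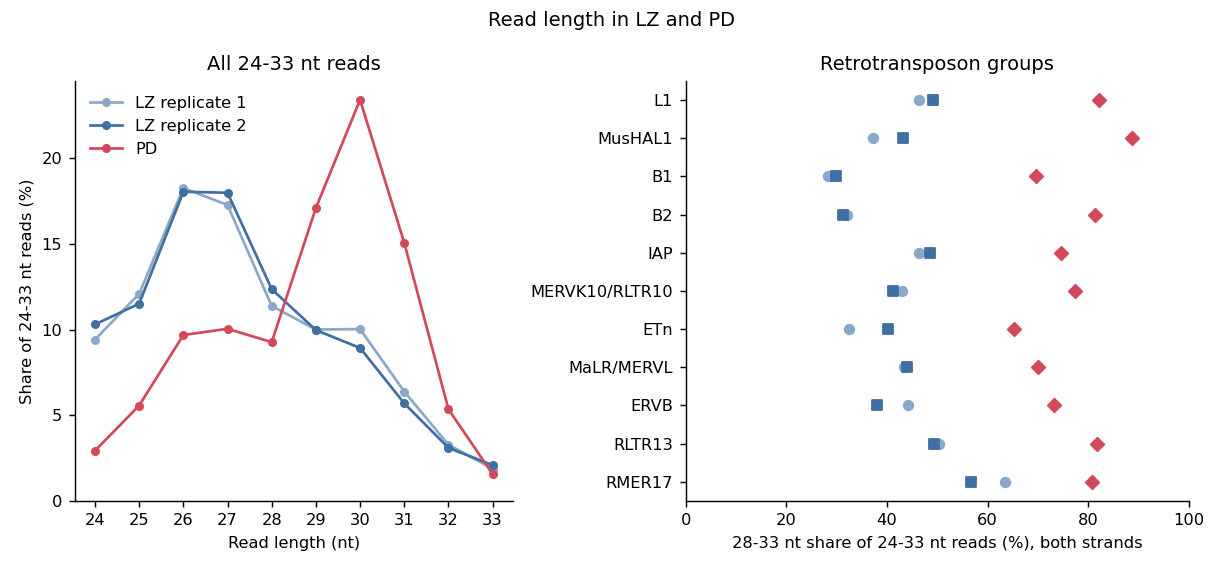
Left, share of 24- to 33-nt reads (y axis, %) at each read length (x axis, nt) in LZ replicate 1, LZ replicate 2 and PD. Right, 28- to 33-nt share (x axis, %) of the reads of 11 retrotransposon groups (rows), with circles and squares for LZ replicates 1 and 2 and diamonds for PD. The LZ libraries peak at 26 nt and PD at 30 nt, and every group lies further right in PD.

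With both strands together, the largest changes in length were in RLTR22_Mus, with a 28- to 33-nt share of 35.5% and 34.5% in LZ and 90.4% in PD, B2_Mm1t (30.9%, 31.4% and 82.1%) and B2_Mm1a (30.9%, 30.1% and 81.1%). In sense reads alone B1_Mus1 changed more, from 20.5% and 24.5% to 88.7%. Elements that fell in level and elements that rose both lengthened: the share was 46.3%, 49.1% and 82.1% for L1, 46.4%, 48.5% and 74.5% for IAP, 50.3%, 49.4% and 81.8% for RLTR13, and 63.4%, 56.6% and 80.7% for RMER17. Individual strands could lag, and for L1Md_A_5end, which is under 10 RPM in PD on each strand, the share was 36.2%, 42.0% and 43.9% in sense reads but 30.5%, 36.5% and 82.9% in antisense reads. First-base composition changed with length. Reads that started with T made up 72.5% and 67.1% of the 28- to 33-nt reads in LZ and 87.1% in PD, and 76.5%, 75.7% and 85.1% of the 24- to 27-nt reads. Without reads of small noncoding RNAs the gap was smaller, at 75.9%, 72.7% and 87.1% in the longer class and 78.4%, 77.5% and 85.3% in the shorter. The share with A at position 10, which is enriched in piRNAs made by the cleavage of a target, was 29.95%, 32.3% and 31.5% in the longer class, with PD between the LZ libraries. PD also lay between them in the shorter class (23.4%, 25.3% and 25.2%). Over all 24- to 33-nt reads the share was 26.2%, 28.2% and 29.8%, with PD above both.

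The same 5′ ends carried longer reads in PD, which accounted for part of the difference in length. An end was defined by its first 20 nt, and 19407 ends with at least 20 reads in each library held 52.6% and 44.5% of the LZ reads and 63.9% of the PD reads of 24 to 33 nt. The mean read length at an end was above both LZ libraries in 78.7% of ends and below both in 7.51%. The median difference from the LZ mean was 0.52 nt, against -0.02 nt between LZ replicates 2 and 1. PD was longer by at least 1 nt in 22.4% of ends and shorter by as much in 0.144%. Ends with an LZ mean of 27 to 28 nt lengthened most (median 0.72 nt, 5196 ends), and those under 26 nt (0.27 nt, 1829 ends) and of 30 nt or more (0.16 nt, 1033 ends) least. Lengths were limited to 24 to 33 nt, so ends that were long in LZ had less room to lengthen. The part of this limit in the pattern was not tested. Over the reads of these ends the mean length was 27.5 and 27.4 nt in LZ and 28.8 nt in PD, a difference of 1.35 nt. Longer reads at the same ends came to 0.43 nt of this when ends were weighted as in LZ and to 0.54 nt when weighted as in PD, and the rest came from the ends' shares of reads.

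**Figure D4:**
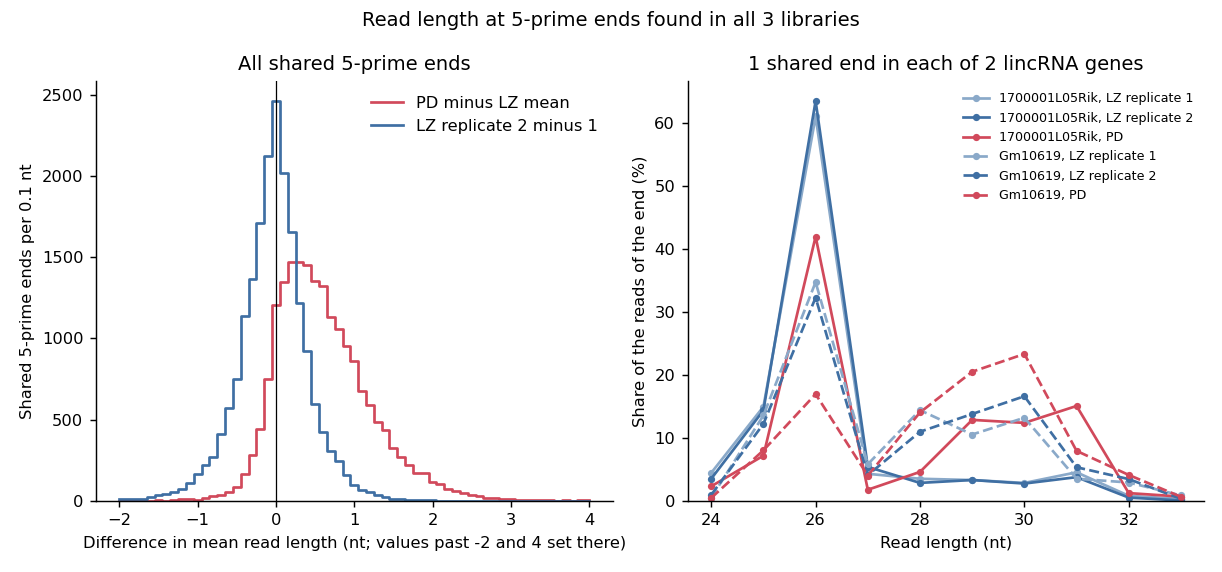
Left, number of shared 5′ ends (y axis) by the difference in mean read length (x axis, nt, in steps of 0.1), for PD minus the LZ mean and for LZ replicate 2 minus replicate 1. Right, share of reads (y axis, %) at each length (x axis, nt) for the printed ends in 1700001L05Rik (solid) and Gm10619 (dashed) in the 3 libraries. The PD curve is shifted right by a median of 0.52 nt, and at both printed ends the 26-nt peak is lower in PD and reads of 29 to 31 nt are higher.

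At the printed 1700001L05Rik end, 26-nt reads made up 61.1% and 63.5% in LZ and 42.0% in PD, while 28- to 33-nt reads went from 15.2% and 13.2% to 46.8%. At the Gm10619 end the mean length went from 27.5 and 27.7 to 28.5 nt, with 826, 319 and 1097 reads. The Gm5878 end went from 29.04 and 29.02 to 29.6 nt, and the Gm49794 end from 29.6 and 29.7 to 30.1 nt. The Gm21269 end, at 31.2, 31.1 and 31.2 nt, was already long in LZ. Over all their shared ends, PD was above both LZ libraries in 312 of 432 in Gm49794, 216 of 250 in Gm21269, 143 of 168 in 1700001L05Rik, 16 of 28 in Gm5878 and 52 of 67 in Gm10619. The 3 shared ends with the most reads in the library that had the fewest included the miR-30d form, which had a mean length of 24.3, 24.3 and 24.2 nt and did not lengthen. An end that matches transcripts of several genes, among them D10Wsu102e and Atg2b, went from 27.4 and 26.9 to 29.7 nt. The other, with no match to an annotated transcript, stood at 30.3, 30.1 and 30.5 nt.

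PD held fewer distinct sequences than LZ, and most of its reads, though a minority of its distinct sequences, were of sequences found in LZ. When 5000000 reads of 24 to 33 nt were drawn from each library, 1868827 and 2091505 distinct sequences were expected in LZ and 1441373 in PD, 0.728-fold the LZ mean. This did not hold for sequences read at least 2 times. There, with 4794526 reads drawn, PD (645801) lay between LZ replicates 1 and 2 (865210 and 608159). Counted as 5′ ends by the first 20 nt, the numbers were 1107847, 1273152 and 672740, 0.565-fold the LZ mean. Of the PD reads, 73.1% and 69.9% had a sequence found in 5000000 reads of LZ replicates 1 and 2, but only 19.03% and 16.3% of the distinct PD sequences did. The LZ libraries shared as small a part of their distinct sequences with each other (17.2% and 20.1%). By reads, in the other direction 59.8% and 49.2% of the LZ reads had a sequence found in PD, below the 67.8% and 62.8% that each LZ library found in the other. In all reads, 379268 sequences (5.01% of the distinct ones) were in all 3 libraries and carried 59.0% and 52.1% of the LZ reads and 70.3% of the PD reads. A further 420697 sequences were in both LZ libraries and not in PD, with 10.9% and 17.1% of the LZ reads, and 35.1% of these sequences were of 28 to 33 nt. Sequences seen only in PD numbered 1713767, with 18.4% of its reads, of which 1503671 were read 1 time, and 72.3% were of 28 to 33 nt.

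The leading sequences of PD were also found in LZ. All of the 1000 most-read PD sequences were found in LZ replicate 1 and 999 in replicate 2. They carried 15.6% of the 24- to 33-nt reads in PD and 7.87% and 5.75% in LZ, and 780 were of 28 to 33 nt. The 1000 sequences with the highest mean share in LZ carried 16.3% and 16.9% of the LZ reads and 8.80% of the PD reads, and 989 of them were found in PD. Of these 1000, 227 matched small noncoding RNAs, against 13 of the PD set. In share of 24- to 33-nt reads, 897 of the PD set were above both LZ libraries in PD and 45 below both. Of the LZ set, 177 were above both in PD and 732 below both. Each set was picked for high reads in its own stage, which by itself favours a lower share in the other. The most-read PD sequence was a 31-nt piece that matches 22 small nuclear RNA genes, at 229, 113 and 5858 RPM. The next 4, of 29 or 30 nt, matched no annotated transcript and went from 282 and 132 to 2871 RPM, from 232 and 102 to 2612 RPM, from 280 and 125 to 1254 RPM, and from 140 and 69.0 to 1138 RPM. The sequences of LZ that came next after the 3 printed miRNA forms, of 25 and 26 nt, also matched none and went from 1247 and 932 to 29.3 RPM and from 1184 and 723 to 29.2 RPM.

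The source of annotated piRNA-sized reads moved from protein-coding transcripts to long noncoding ones. By an exact match of the first 24 nt to GENCODE transcripts of 1 gene, 10.6% and 13.7% of the 24- to 33-nt reads in LZ and 2.81% in PD were sense to protein-coding genes, 4.33-fold lower than the LZ mean of 12.2% ± 2.2 (SD, n = 2). Reads sense to lincRNA genes made up 4.78%, 3.75% and 6.49%, 1.52-fold higher than the LZ mean of 4.27% ± 0.73 (SD, n = 2). As levels in the whole library, these were 47967, 54004 and 23763 RPM for protein-coding genes and 21599, 14741 and 54862 RPM for lincRNA genes. Both classes started mostly with T, at 79.9%, 82.7% and 85.9% of protein-coding reads and 85.6%, 81.1% and 89.5% of lincRNA reads. The 28- to 33-nt share rose in both, from 32.7% and 33.1% to 69.6% and from 42.5% and 44.9% to 66.3%. Reads matching no annotated transcript made up 67.9%, 58.3% and 83.7%, and those of small nucleolar RNAs 3.03%, 3.93% and 0.102%.

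By gene, with the same rule as for retrotransposons, 1029 genes had at least 10 RPM of sense reads in PD or in the LZ mean. Of these, 148 (14.4%) were higher and 733 (71.2%) lower in PD. A gene under 10 RPM in PD or in the LZ mean passed through the other value alone. It could then be called only in the direction of that value. Among 922 protein-coding genes, 85 were higher and 700 lower, and among 49 lincRNA genes 33 were higher and 11 lower. On the antisense strand 59 of 93 (63.4%) were higher and 28 (30.1%) lower, and 21 of 22 processed pseudogenes were among the higher ones. The 28- to 33-nt share was above both LZ libraries in 859 of the 1029 genes (83.5%) in sense reads and in 78 of 93 (83.9%) in antisense reads. The number of genes with at least 10 RPM changed with the scaling. Scaled to the 24- to 33-nt reads, 84 of 2174 genes were higher and 1883 lower in sense reads. Scaled to the reads outside this range, 1065 of 2436 were higher and 794 lower.

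The lincRNA genes with the highest PD level were Gm49794 (chr17:27354111-27367492), at 8339, 5389 and 13675 RPM, Gm21269 (chr7:73816546-73838898), at 2509, 1369 and 8995 RPM, 1700001L05Rik (chr15:83353847-83367282), at 1854, 1244 and 3957 RPM, Gm5878 (chr6:85111416-85126125), at 415, 204 and 2811 RPM, and Gm10619 (chr7:73781429-73816503), at 682, 405 and 2687 RPM. Gm49794, the leader in all 3 libraries, had a log2 ratio of 0.99 and so was not counted as higher, while the other four were, by 2.55- to 9.08-fold. Gm21269 and Gm10619 lie side by side on opposite strands of chromosome 7. The largest rises after Gm5878 were those of 4933404O12Rik (63.9 and 53.7 to 531 RPM), 4930444F02Rik (182 and 125 to 1336 RPM), Gm32856 (1.47 and 1.32 to 18.96 RPM) and 4933440M02Rik (363 and 199 to 2337 RPM). Only 0.794% of the PD reads of Gm32856 started with T, unlike the others named here, in which at least 86.7% did. Rmrp, the RNA of the RNase MRP complex that GENCODE lists as a lincRNA, fell from 1000 and 1430 to 76.4 RPM, and none of its reads started with T. AU020206 fell from 120 and 212 to 1.505 RPM and Gm49654 from 95.9 and 83.1 to 0.376 RPM. AU020206 and Gm49654 passed the 10 RPM filter through LZ alone and Gm32856 through PD alone, so each could be called in only 1 direction.

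**Figure D5:**
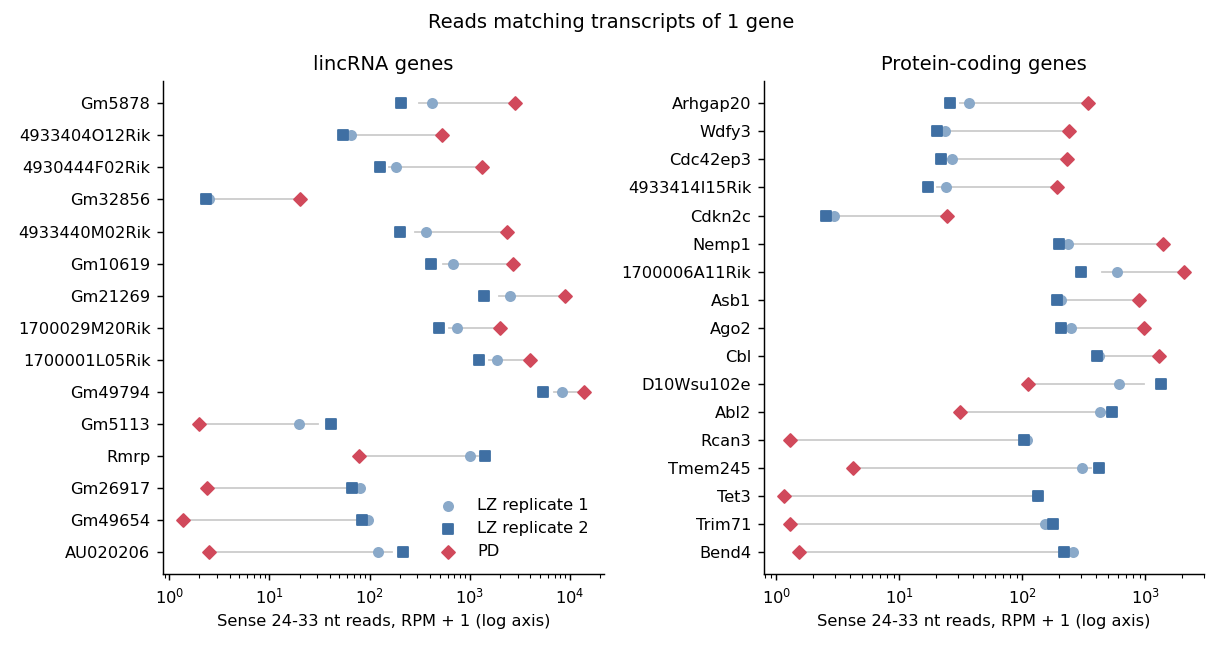
RPM + 1 of sense 24- to 33-nt reads (x axis, log) for the lincRNA genes (left) and the protein-coding genes counted as higher or lower (right) with the highest levels or the largest changes, ordered by log2 ratio. Circles and squares are LZ replicates 1 and 2, diamonds are PD and the grey line joins the LZ mean to PD. The LZ replicates lie close together compared with the distance to PD for most genes.

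Protein-coding genes changed in both directions. Among those with the highest PD level, 1700006A11Rik rose from 590 and 300 to 2083 RPM, Nemp1, a nuclear envelope protein, from 233 and 196 to 1394 RPM, Cbl, a ubiquitin ligase, from 419 and 403 to 1302 RPM, Ago2, an Argonaute protein, from 246 and 205 to 972 RPM, and Asb1 from 206 and 189 to 897 RPM. In each of these the reads lengthened, for example in Cbl from a 28- to 33-nt share of 46.2% and 42.9% to 84.3%. The largest rises relative to LZ were those of Arhgap20 (35.8 and 24.9 to 344 RPM) and Wdfy3 (22.5 and 19.4 to 237 RPM). Cdkn2c, a cell cycle inhibitor, rose from 1.94 and 1.55 to 23.2 RPM. It passed the 10 RPM filter through PD alone, so only a rise could be called. The largest falls reported here were in genes under 10 RPM in PD, so only a fall could be called. Bend4 fell from 255.6 and 219 to 0.527 RPM, Trim71, an RNA-binding ubiquitin ligase, from 152 and 177 to 0.301 RPM, Tet3, which oxidises methylcytosine, from 130 and 133 to 0.150 RPM, Tmem245 from 305 and 420 to 3.16 RPM and Rcan3 from 108 and 102 to 0.301 RPM. The LZ libraries differed little in these genes, and 90.8% of the Tet3 reads in LZ replicate 2 started with T. D10Wsu102e, the protein-coding gene with the highest LZ mean, went from 608 and 1336 to 111 RPM and Abl2, a tyrosine kinase, from 430 and 537 to 30.4 RPM.

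Antisense reads were highest in PD at 5330409N07Rik (371 and 201 to 2034 RPM), CT025671.4 (682 and 339 to 1826 RPM), Stox1 (347 and 151 to 1467 RPM), Gm42811 (458 and 221 to 1221 RPM) and Zfp445 (142 and 94.9 to 1008 RPM). Each of these 5 was above both LZ libraries. Antisense reads of Mfsd4a went the other way, from 187 and 302 to 7.83 RPM. This gene passed the 10 RPM filter through LZ alone, so only a fall could be called. A read that matched several genes was left out of these levels.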

How the data were processed

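Small RNAs of the 3 libraries had been sequenced from TruSeq libraries. The authors trimmed the reads (cutadapt, version not given in the sources used here) and deposited, for each library, a list of sequences with raw read counts and a table of RPM values per retrotransposon consensus. In those tables reads mapped with up to 2 mismatches after abundant noncoding RNAs were removed, a read with several matches was divided, and forward columns were taken as sense. Removal and division lower levels of related elements. 6 rows that are no retrotransposons were left out. The thresholds were 10 RPM, a pseudocount of 1 RPM, 2-fold and, for shares, 10 percentage points. Named retrotransposons were a fixed list, the 5 largest changes each way per strand, the 3 largest changes in length and all with opposite strands, and named genes the 5 highest and the 5 most changed per class. The members, lists and rules were chosen with earlier results of these data known. Reads were matched exactly to GENCODE M21 transcripts, which was added after the data were seen. Genes on 1 chromosome and 1 other gene that the rule named are not reported here. miR-34c-5p and miR-486a-5p were not analysed here. Scripts ran in Python 3.11.15 with pandas 2.3.3 and statsmodels 0.14.6 (Wilson intervals) and were tested on simulated data. The other 10 libraries were not used here.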

Additional observations from a re-analysis of the deposited data

How the results depend on the processing

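No paired analysis was possible because PD has 1 library. Scaling moved the counts most, in opposite directions. Scaled to the 24- to 33-nt reads, 6 of 113 retrotransposons tested were higher and 76 lower in total. In sense reads 5 of 90 were higher and 69 lower, and in antisense reads 3 of 84 were higher and 49 lower. Scaled to the reads outside 24 to 33 nt, 83 of 137 were higher and 14 lower in total. In sense reads 50 of 105 were higher and 25 lower, and in antisense reads 73 of 106 were higher and 7 lower. Rescaled to the listed total, 39 of 102 were higher and 19 lower in total. In sense reads 20 of 77 were higher, and in antisense reads 36 of 77 were higher and 7 lower. The reads outside 24 to 33 nt also reversed 9 named log2 ratios: those of B1_Mm (0.38), B1_Mus1 (0.76), MusHAL1 (0.68) and IAPLTR1_Mm (0.36) in antisense reads, and those of L1Md_F_5end (0.31), IAPA_MM (0.59), IAPLTR2a (0.23), RLTR10C (0.34) and IAPLTR2b (0.19) in sense reads. The cause was not tested beyond the scaling itself.

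With a minimum of 1 RPM or no filter, 59 were lower in total, 20 higher in sense and 40 lower in antisense reads. At 1 RPM these were of 165, 131 and 136 tested, and with no filter of 262. With a minimum of 50 RPM, 11 of 57 were higher in total, 4 of 42 in sense and 7 of 42 in antisense reads. With more than 3-fold, 8 of 94 were higher and 25 lower in total. In sense reads 6 of 74 were higher, and in antisense reads 5 of 70 were higher and 10 lower. Fewer features tested or a stricter rule lowers these counts by construction. For the 28- to 33-nt share, a minimum of 50 RPM left 37 rises in total, 12 in sense and 22 in antisense reads, and a minimum of 1 RPM gave 122 rises and 1 fall in total, 91 and 1 in sense, and 91 rises in antisense reads. The number tested changed with the minimum, so these counts of rises cannot be set against those at 10 RPM. A split at 28 and 29 nt was not run, since the retrotransposon tables give length classes.

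Leaving out each LZ library in turn gave 18 to 20 higher and 29 to 54 lower in total, 11 to 12 and 37 to 55 in sense, and 13 to 14 and 11 to 30 in antisense reads, with 11 without replicate 2. Without replicate 1 and without replicate 2, 103 and 92 were tested in total, 77 and 70 in sense and 73 and 66 in antisense reads. The median lengthening at shared ends ranged from 0.48 to 0.52 nt. The share of PD reads found in LZ was 76.0% with all reads and 81.1% with sequences read at least 2 times. It was 74.2% for 26 to 32 nt and 87.9% by the first 20 nt. The number of distinct sequences in PD was 0.565-fold the LZ mean by the first 20 nt. For sequences read at least 2 times it was 0.877-fold the LZ mean, but PD (645801) lay between the LZ libraries (865210 and 608159). By the most frequent length, the median difference at shared ends was 0 nt and 23.3% of ends were longer in PD. Genes were chosen after seeing the data. Scaled to the 24- to 33-nt reads, 84 of 2174 were higher and 1883 lower in sense reads, and 37 of 141 and 71 in antisense reads. Scaled to the reads outside, 1065 of 2436 in sense and 182 of 231 in antisense reads were higher. With a minimum of 50 RPM, 62 of 219 were higher and 132 lower in sense reads, and 31 of 38 and 6 in antisense reads.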
